A study of Canis lupus familiaris with 6 samples.

Results

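CMT-U309 is a canine mammary tumor cell line established from a spindle cell tumor. The data described here are the 2 arrays of that line, of 6 in the series, on which RNA of CMT-U309 cells co-cultured with myeloid-derived suppressor cells (MDSCs) was hybridized together with RNA of CMT-U309 cells in monoculture. The 2 arrays were chosen by cell line from the sample labels, and P114 (anaplastic cancer) and CMT-U27 (simple carcinoma), with 2 arrays each, are used only for comparison. The tumor cells grew in RPMI-1640 with fetal bovine serum, and the MDSCs, taken from healthy dogs' blood by sorting for Gr1, CD11b and CD33, lay in an insert that shared the medium and held fewer MDSCs than there were tumor cells. The sample labels give at least 72 h of co-culture, while the methods of the study give a shorter time. The monoculture held the tumor cells alone, so what MDSCs do and what the addition of any cells to the insert does cannot be told apart. The question was what MDSCs change in the gene expression of tumor cells.

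MDSCs are immature myeloid cells that accumulate in the blood of tumor bearers and restrain T cells, and they release cytokines, growth factors and proteases. Tumor cells of mesenchymal shape carry a prominent actin cytoskeleton, secrete collagens and other matrix proteins, and express few of the junction proteins of epithelia. A canine Agilent array carries oligonucleotide probes of 60 bases, and each array here compared the 2 RNAs directly, with co-culture in Cy5 and monoculture in Cy3 on array 1 and the dyes exchanged on array 2. Since the second array repeats the first with the dyes exchanged, CMT-U309 has 1 replicate, no test was possible, and the distance between the arrays covers dye and hybridization only. In a bulk culture, fewer cells of a type and less RNA per cell cannot be told apart.

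Of 43603 probes that are not controls, 43476 gave a ratio on both arrays. A probe is called detected here where Feature Extraction, the scanner's software, flagged its signal as well above background in all 4 channels, which was the case for 22859 probes. The co-culture channel of array 2, in Cy3, was the dimmest, with 53.0% of spots well above background, against 75.3% to 81.0% in the other channels. No spot was saturated. All ratios below are log2 ratios of the co-culture over the monoculture processed signal, so that 1 is a doubling and 0 is no difference, and signals are in arbitrary units of brightness.

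The label of the line was first compared with marker genes in the monoculture channels. Among 27 mesenchymal markers, all 27 were well above background in both monoculture channels of CMT-U309, against 24 in P114 and 21 in CMT-U27, and 22 stood higher in CMT-U309 than in both other lines (81.5%, against 31.1% of 13022 genes). COL3A1, a fibrillar collagen, had a log2 level of 16.22 in CMT-U309, 10.37 in P114 and 4.08 in CMT-U27, and the transcription factor PRRX1 had 14.78, 9.32 and 5.33. They had the largest gaps to P114 in the list, whose median difference was 0.67 to P114 and 5.03 to CMT-U27. SNAI1, PDGFRA, PDGFRB, LOX and CDH2 stood lower in CMT-U309 than in P114, with differences of -1.77, -1.59, -0.73, -0.19 and -0.05. Of 23 epithelial markers, 0 stood higher in CMT-U309 than in both other lines and 15 stood lower than in both (65.2%, against 32.2% of 13022 genes). Detection did not follow the same order, since 15 of the 23 were well above background in both monoculture channels of CMT-U309, 23 in CMT-U27 and 11 in P114. Keratin 19 (KRT19) had 4.66 in CMT-U309, 10.32 in P114 and 16.02 in CMT-U27, the largest gaps in the list. The median difference of the list was -0.60 to P114 and -3.59 to CMT-U27. ESRP1 stood higher in CMT-U309 than in P114 by 2.89, and CLDN3, OVOL1, ERBB3, ESRP2, OCLN and ST14 by 0.60 or less. MUC1 stood higher than in CMT-U27 by 4.17. CLDN4, GRHL2, MARVELD2, MARVELD3 and RAB25 stayed undetected in all channels of CMT-U309, of which GRHL2, MARVELD2 and MARVELD3 were undetected in monoculture of P114 too. These levels were measured after loess within and quantile normalization between arrays, with 1 RNA per line and no test.

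Markers of the cells in the insert were looked at next. Of 27 myeloid and MDSC markers on the array, 17 were well above background in both monoculture channels, so the list also reads signal of the tumor cells alone. In all 4 channels 7 were detected, and 0 of these differed 1.5-fold in either direction (against 4.22% of 8464 genes higher and 1.97% lower). ITGAM, which encodes CD11b, passed the background limit in 0 of 4 channels, as did LYZ, SPI1 and FCGR3A. Of the myeloid list 2 genes passed it in co-culture channels only, CSF1R in co-culture on array 1 (35.8, against 16.1 in monoculture) and FCGR1A in co-culture on array 2 (37.1, against 7.396). Each passed in 1 of 4 channels, and on the other array CSF1R read 6.41 in co-culture and 9.73 in monoculture and FCGR1A 20.2 and 15.2. No gene of the other marker lists passed in co-culture only. The summed signal of the myeloid list was 8442 in co-culture and 7483 in monoculture on array 1, and 2682 and 2909 on array 2, so the order of the conditions differed between the arrays. The lymphocyte list had summed signals of 20477 and 16272 on array 1 and 8874 and 8675 on array 2. CD2, CD8B, MS4A1 and GZMA of that list passed the background limit in 0 channels. Of the lymphocyte and endothelial lists 6 genes each were detected and 0 differed 1.5-fold. In lists of 6 or 7 detected genes a count of 0 is close to the shares of all genes. Of 5 detected smooth muscle and myoepithelial markers CNN1 and TAGLN were at least 1.5-fold higher (40%, against 4.22% of 8464 genes).

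The ratios of the 2 arrays had equal signs for 13097 of the detected probes (57.3%), 6674 of them higher and 6423 lower in co-culture. Over the detected probes the Pearson correlation between the arrays was 0.22 and the Spearman correlation 0.21, which is a description over probes that share their RNA. The median absolute half-difference between the arrays was 0.16 for a single probe, and the mean ratio had an SD of 0.32 over probes. A probe was called where it was detected, had equal signs and had a mean ratio of at least 1 (a 2-fold difference). By this rule 160 probes were called higher (0.700% of detected probes) and 16 lower (0.0700%). Of these, 58 and 5 passed 2-fold on each array alone. Just inside the threshold the mean ratio was 1.00 for higher and -1.01 for lower probes, and just outside it 0.999 and -0.998. Gene symbols were given for 113 of the higher probes, which belong to 101 genes (1.19% of 8479 genes with a detected probe), and for 5 of the lower probes, from 5 genes (0.0590%). Background correction by normexp with loess, in place of the signals as the scanner software processed them, left 13 probes higher, 8 of them among the 160, and 2 lower, of which 0 were among the 16. Under it CFL1 had 1.65, COL1A1 1.33 and ACTN1 1.11, while DDX39B had 0.89, FSCN1 0.86, MLF2 0.84, ZYX 0.74, MIF 0.55, NSDHL 0.30 and MMP1 -0.44.

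**Figure D1:**
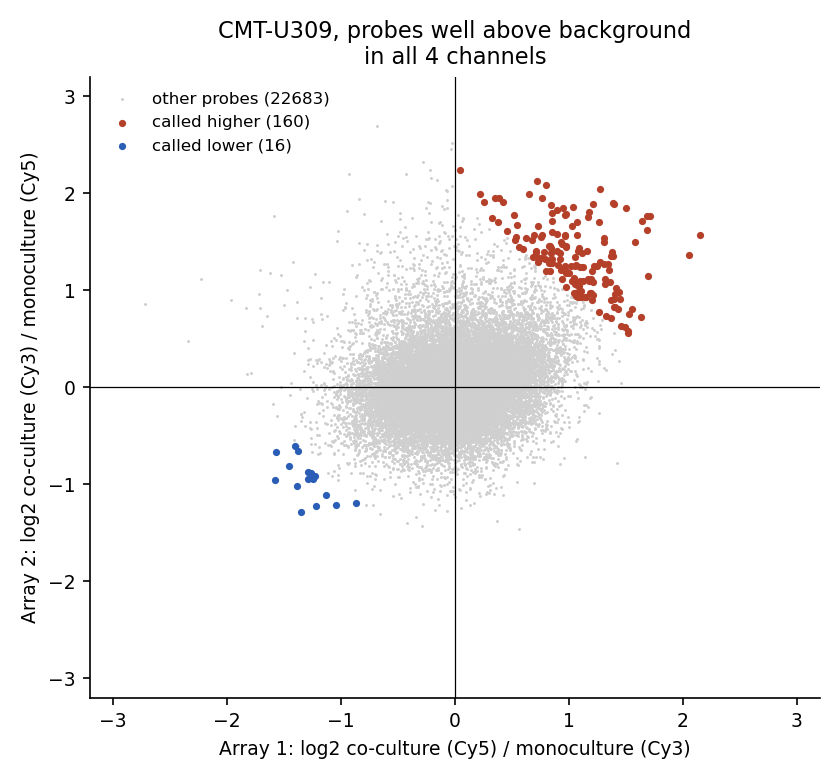
Each point is 1 of 22859 detected probes, with its log2 ratio, co-culture over monoculture, on array 1 (co-culture in Cy5) on the x axis and on array 2 (co-culture in Cy3) on the y axis, red for the 160 probes called higher and blue for the 16 called lower. Most probes form a round cloud about 0, and the called probes reach farther to the upper right than to the lower left.

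Of the 21 fixed lists, that of the actin cytoskeleton held the most genes past 2-fold at their brightest probe, 5 genes, all higher in co-culture. Cofilin 1 (CFL1), which severs actin filaments, was covered by 3 detected probes. The higher of its 2 called probes had signals of 23309 in co-culture and 7122 in monoculture on array 1, and 7205 and 2122 on array 2, giving ratios of 1.71 and 1.76. Co-culture was the brighter channel with either dye. The other called probe, which overlaps the first, had a mean ratio of 1.73. The brightest CFL1 probe, 680.5 bases farther towards the 3′ end, had signals of 146708 and 128469, then 44251 and 42616, and a mean ratio of 0.12. The overlapping pair is shown because the CFL1 result rests on it. In the probe sequences (5′ to 3′, from the scanner files, coordinates on canFam2, plus strand) capitals mark the longest run that both share exactly, 33 bases.
CFL1 probe at chr18:54432845-54433119: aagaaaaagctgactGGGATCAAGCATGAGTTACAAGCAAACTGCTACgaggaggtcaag
CFL1 probe at chr18:54432833-54433107: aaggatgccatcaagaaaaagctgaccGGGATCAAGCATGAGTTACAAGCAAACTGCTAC
Both probes span 275 bases of the genome with 60 bases of sequence, so each crosses a gap in the alignment. Since they overlap, they are not independent measurements of CFL1.

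Zyxin (ZYX), a protein of focal adhesions, had signals of 1322 in co-culture and 506 in monoculture on array 1 and 651 and 174 on array 2. Its ratios were 1.39 and 1.90, and a second probe shifted by 3 bases had 1.27 and 2.04. Alpha-actinin 1 (ACTN1), which crosslinks actin filaments, had signals of 10227 and 4143, then 4219 and 1451. Its ratios were 1.30 and 1.54, and its other probe, farther upstream, had a mean ratio of 0.67. Fascin (FSCN1), which bundles actin in filopodia, had signals of 4665 and 2000, then 1499 and 628. Both arrays placed it higher in co-culture, with ratios of 1.22 and 1.26. Transgelin 2 (TAGLN2) had a mean ratio of 1.21 and calponin 1 (CNN1) 1.08. In the list of actin cytoskeleton genes and their regulators, 59 of 63 were detected at their brightest probe. Of these, 9 were at least 1.5-fold higher with equal signs (15.3%) and 1 was lower, against 4.22% and 1.97% of 8464 genes. The lower one was ARPC1B, with a mean ratio of -0.62. On array 1 alone, where a dye effect no longer cancels, 18 were higher. Over all fixed lists the members past 1.5-fold in either direction rose from 62 to 143 on array 1 alone. The share of all genes on array 1 alone is not given, so the 18 cannot be read against the 4.22%. The median ratio of the list was 0.26, against 0.01 over all 8464 genes, and the other members past 1.5-fold were RAC1 at 0.84, with 0.76 at its other probe, MYH10 at 0.69, TAGLN at 0.61 and PTK2 at 0.61.

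Collagens and matrix genes were higher at some probes and not at others. COL1A1, the alpha 1 chain of type I collagen, was covered by 4 detected probes. Its 3 upstream probes had mean ratios of 1.38, 1.42 and 1.22, and the probe at the 3′ end had -0.21. The upstream probe with the highest signal had 36325 in co-culture and 11265 in monoculture on array 1, and 7340 and 3322 on array 2. At the 3′ probe the signals were 143343 and 204161, then 91318 and 85497, so that the order of the conditions differed between the arrays there. Collagen chains are built of short repeats that each hold a glycine, and the 2 upstream probes nearest to the 3′ end show this in their bases. They are printed (minus strand of canFam2, 5′ to 3′) because they place the higher ratios within the coding part of the transcript. Capitals mark the triplets that begin with gg and stand 9 bases apart, 6 in the first and 7 in the second.
COL1A1 probe at chr9:29510674-29510733: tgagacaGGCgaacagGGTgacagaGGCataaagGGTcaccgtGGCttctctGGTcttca
COL1A1 probe at chr9:29513653-29513712: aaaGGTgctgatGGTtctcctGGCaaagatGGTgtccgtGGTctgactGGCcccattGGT
The first had ratios of 1.38 and 1.39 and the second 1.69 and 1.14. The probe farthest upstream, 12819 bases from the 3′ probe, had 1.41 and 1.03.

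COL1A2, the partner chain of type I collagen, had 6 detected probes and 0 of them was called. Its means ran from -0.35 to 0.52, with 4 of 6 above 0. Its 3 probes with the same glycine spacing had 0.34, 0.36 and 0.52. COL6A3, a chain of type VI collagen, went the other way along the gene. Its probe at the 3′ end had signals of 3064 and 738, then 820 and 318, with a mean ratio of 1.71, while its 4 upstream probes had means between -0.05 and 0.28. COL5A1 had 3 detected probes with means of 0.70, 0.81 and 0.91, all with equal signs. In the list of collagens and matrix genes, 42 of 51 were detected at the brightest probe, 6 were at least 1.5-fold higher (14.3%, against 4.22% of all genes) and 0 lower (against 1.97%), and the median was 0.13. Beside COL6A3 and COL5A1 these were MFAP2 at 0.91, biglycan (BGN) at 0.87 and the lysyl oxidases LOXL3 at 0.75 and LOXL2 at 0.66. LOXL3 had 1.45 on array 1 and only 0.04 on array 2, while LOXL2 had 0.59 and 0.73.

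The place of a probe along its gene moved with the ratio over the whole array. In 2952 genes with at least 2 detected probes more than 60 bases apart, the ratio of the most upstream probe minus that of the most downstream probe had a median of 0.13, and the upstream probe was the higher one in 67.1% of genes. For probes 60 to 500 bases apart these values were 0.15 and 75.8%, and for overlapping probes closer than 60 bases -0.00 and 49.8%. The same difference was 0.11 in CMT-U27 and -0.03 in P114. Base composition moved with the ratio too. Detected probes with 35% to 40% G and C had a median ratio of -0.12 (7032 probes) and those with 55% to 60% had 0.11 (2616 probes). The part of probe position and base composition in the results was not tested. Of the 101 genes called higher, 64 were called at their brightest probe (0.756% of 8464 genes), as were all 5 called lower (0.0591%). In 53 of the 101 genes 2 or more probes were detected, and in 6 of these every detected probe was called.

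**Figure D2:**
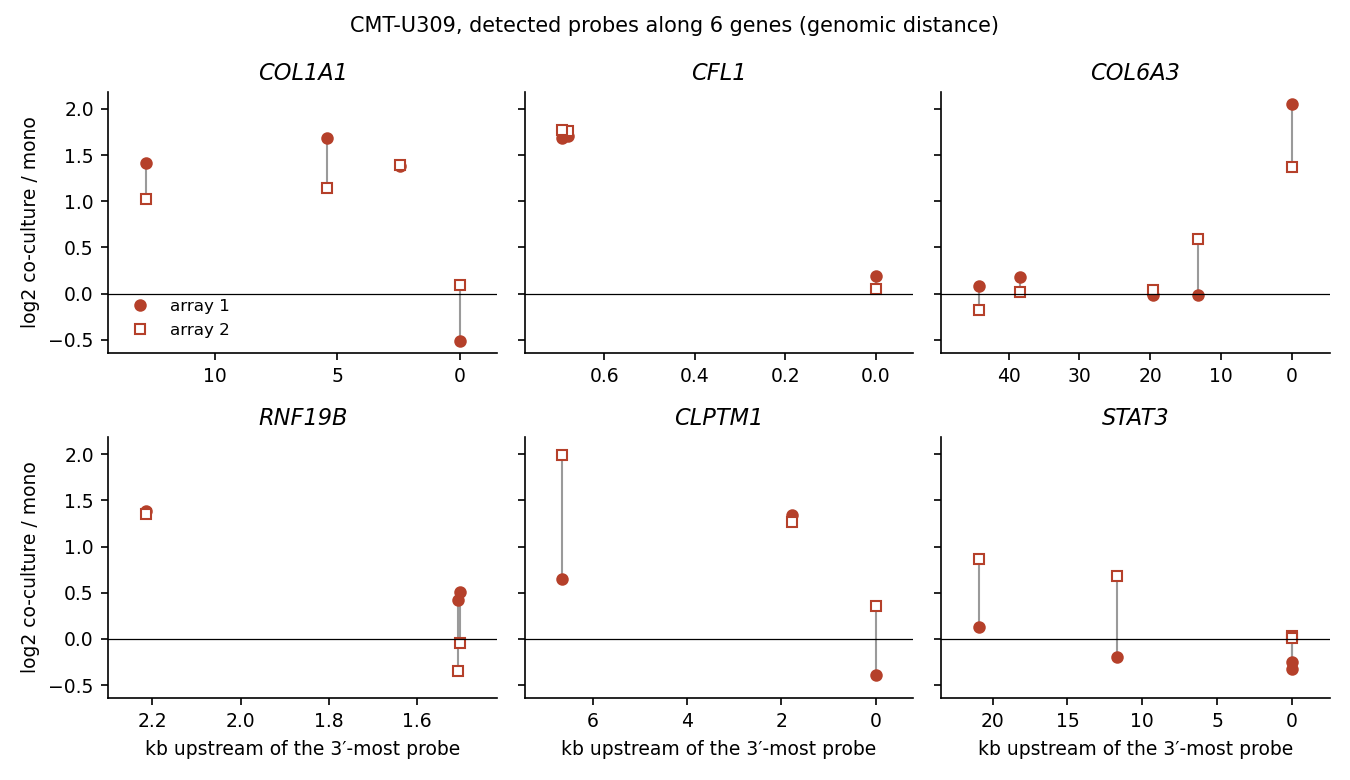
The panels show the log2 ratio, co-culture over monoculture (y axis), at every detected probe of 6 genes, against its genomic distance in kb upstream of the gene's 3′-most probe on the array (x axis, the 3′ end at the right), filled for array 1 and open for array 2. COL1A1, CFL1, RNF19B and CLPTM1 have their higher ratios upstream, COL6A3 has its highest ratio at the 3′ end, and no STAT3 probe has a mean ratio of 1 or more.

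Genes of glycolysis and of the response to low oxygen lay mostly above 0. In this list 36 of 38 genes were detected, 30 had a mean above 0 (50.8% of all detected genes), 11 were at least 1.5-fold higher (30.6%, against 4.22% of all genes) and 0 lower, and the median was 0.32. DDIT4, an inhibitor of mTORC1 that stress and hypoxia induce, was the 1 of 36 detected members past 2-fold at its brightest probe (against 0.756% of 8464 genes). Its signals were 772 in co-culture and 361 in monoculture on array 1 and 243 and 113.7 on array 2, with ratios of 1.097 and 1.094. GAPDH, the enzyme that oxidizes glyceraldehyde 3-phosphate, was covered by 7 detected probes. All 7 were higher in co-culture on both arrays, with mean ratios between 0.52 and 0.82. Of these probes 4 overlap at the 3′ end, and copies of GAPDH elsewhere in the genome may bind the same probes. Its brightest probe read 304659 and 162613, then 83943 and 60003. ENO1 (enolase) had means of 0.67 and 0.71 at 2 probes, the phosphofructokinases PFKP and PFKL had 0.79 and 0.69, and SLC16A3, which exports lactate, had 0.81. Of the hypoxia targets, BNIP3 had 0.65 at its brightest probe and 1.04 at a called probe upstream, and EGLN1, ANKRD37, NDRG1 and ADM had 0.81, 0.80, 0.73 and 0.69, where a dimmer NDRG1 probe had 0.06. The list median was 0.17 in CMT-U27 and 0.14 in P114.

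Cholesterol synthesis genes had a median ratio of 0.27, with 5 of 30 detected genes at least 1.5-fold higher (16.7%, against 4.22% of all genes) and 0 lower (against 1.97%). NSDHL, which removes methyl groups from sterol intermediates, had signals of 211 and 89.0 on array 1 and 70.5 and 29.5 on array 2. Both arrays gave it a ratio of 1.25. HSD17B7, another enzyme of the pathway, had ratios of 0.75 and 1.33. Squalene epoxidase (SQLE) had 0.86 at its brightest probe and 1.09 at a called probe upstream, DHCR7 had 0.74 and the transcription factor SREBF2 0.70. The list median was 0.03 in CMT-U27 and -0.02 in P114, and no test of the difference between lines was possible. Under normexp with loess the list counted 1 gene past 1.5-fold and had a median of 0.13.

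The remaining genes with the largest ratios were outside the fixed lists. DDX39B, an RNA helicase of splicing and mRNA export, had the highest mean ratio of all detected probes. Its signals were 2587 and 582 on array 1 and 747 and 252 on array 2, which gave ratios of 2.15 and 1.57. MLF2 had signals of 2677 and 835, then 866 and 282, and a mean ratio of 1.65. NAPA, the SNAP protein that recycles SNARE complexes after membrane fusion, had mean ratios of 1.20 and 1.07 at 2 probes of the same place. PCYOX1L had ratios of 1.36 on both arrays. RNF19B, a ubiquitin ligase, had a mean of 1.37 at its called probe, which lies upstream of brighter probes at 0.04 and 0.23. CLPTM1 had means of 1.30 and 1.32 at its called probes and -0.02 at its brightest, which lies at the 3′ end. The 1.30 came from ratios of 1.34 and 1.27. The 1.32 came from unlike ratios of 0.65 and 1.99, at a dim probe with a monoculture signal of 18.0 on array 2.

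**Figure D3:**
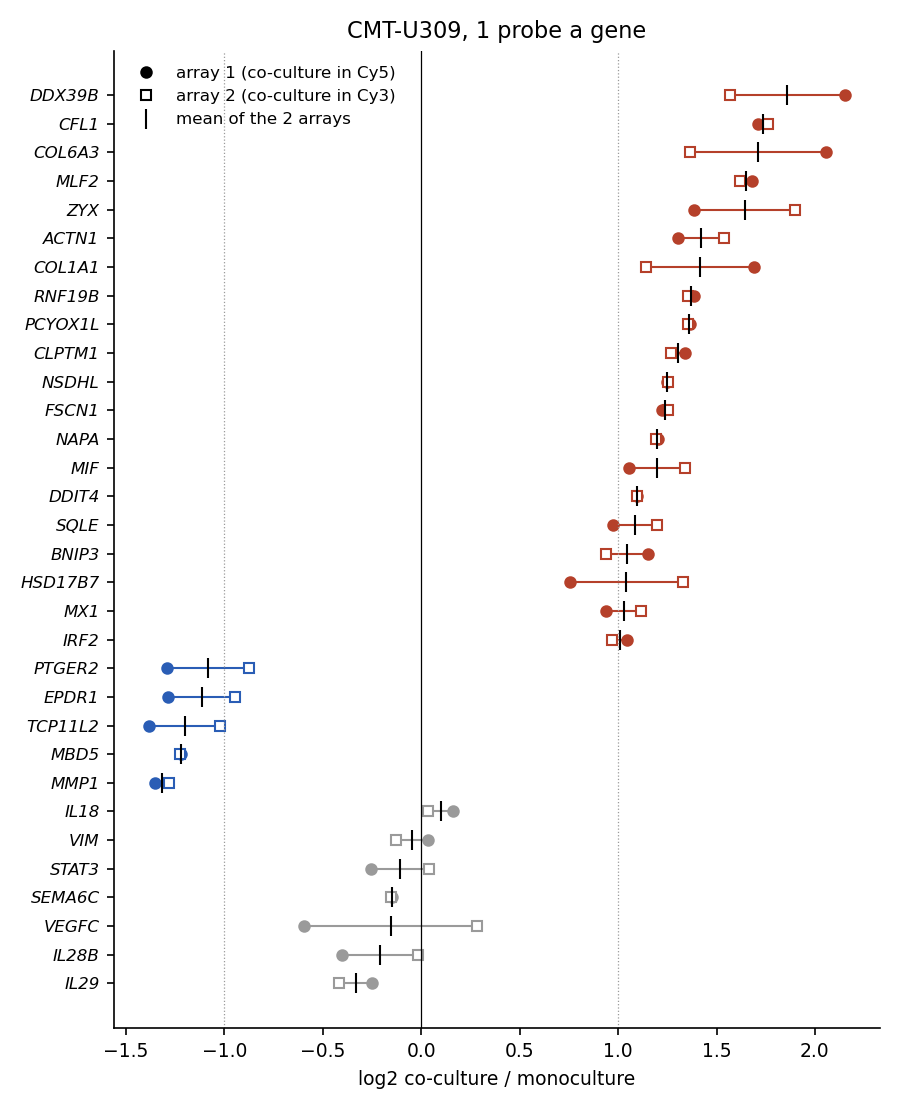
For each gene named by rule with a detected probe, the log2 ratio, co-culture over monoculture (x axis), is shown on array 1 (filled circle), on array 2 (open square) and as their mean (tick), red for genes called higher, blue for genes called lower and grey for genes followed by the study that were not called. The dotted lines mark ratios of -1 and 1. The 20 red genes lie between means of 1.01 and 1.86, and the 5 blue genes between -1.32 and -1.09.

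The 5 genes called lower in co-culture were MMP1, MBD5, TCP11L2, EPDR1 and PTGER2. MMP1, the interstitial collagenase that cleaves type I collagen, had signals of 223 in co-culture and 571 in monoculture on array 1 and 84.7 and 206 on array 2. With ratios of -1.35 and -1.28 it had the lowest mean, -1.32, of all detected probes. PTGER2, a receptor of prostaglandin E2, had signals of 337 and 828, then 151 and 277. Its ratios were -1.29 and -0.88. MBD5, a methyl-CpG-binding domain protein, had ratios of -1.22 on both arrays. TCP11L2 had a mean of -1.20 and a second detected probe at -0.98. EPDR1 had a mean of -1.12 at the called probe and -0.58 at a probe shifted by 7 bases, so that probes of nearly the same place differed. In the list of matrix proteases and inhibitors, 27 of 39 genes were detected, with a median of 0.02. Beside MMP1, gelatinase A (MMP2) had 0.83 at its brightest probe and -0.05 and 0.04 at its others.

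Secreted inflammatory factors were detected in small number and lay on both sides of 0. Of 21 detected cytokines and chemokines (of 55 on the array), 1 was at least 1.5-fold higher (4.76%, against 4.22% of all genes) and 3 were lower (14.3%, against 1.97%), and the list median was -0.03 (0.02 with each channel scaled to a common median). MIF, macrophage migration inhibitory factor, had signals of 1586 in co-culture and 764 in monoculture on array 1 and 504 and 199 on array 2. It was higher on both arrays, with ratios of 1.05 and 1.34. IL8, a chemoattractant of neutrophils, had 4 detected probes and all 4 were lower in co-culture on both arrays. Its brightest probe read 43646 and 74907, then 17711 and 27678, a mean ratio of -0.71, and the other 3 had means between -0.49 and -0.24. CSF2, which encodes GM-CSF, had means of -0.71 and -0.38 at its 2 probes, and CCL20, a ligand of CCR6, had -0.66. In CMT-U27 the brightest IL8 and CSF2 probes had 0.19 and 0.72, and in P114 0.00 and -0.49. Among angiogenic factors, 25 of 33 were detected with a median of 0.13, of which 2 were at least 1.5-fold higher and 2 lower (8% each, against 4.22% and 1.97% of all genes). The higher ones included ADM, named above, and the lower ones were IL8 and HGF, the latter with ratios of -0.72 and -1.05.

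Of 28 detected interferon-stimulated genes, 3 were at least 1.5-fold higher (10.7%, against 4.22% of all genes) and 0 lower (against 1.97%), with a list median of 0.04. MX1, an antiviral GTPase, had 3 detected probes with means of 0.71, 0.89 and 1.03. IRF2, a transcription factor that binds interferon response elements, had ratios of 1.05 and 0.97, and OAS1 had 1.26 and 0.43. In the list of the interferon lambda receptor and JAK-STAT genes, 18 of 26 were detected, 0 differed 1.5-fold in either direction and the median was 0.00. The study followed IL28RA, the receptor chain of the lambda interferons. Its probe was well above background in 1 of 4 channels, monoculture on array 1, and read 16.6 in co-culture and 21.9 in monoculture there, then 19.3 and 3.56 on array 2, so the order of the conditions differed between the arrays. The ligand genes IL28B and IL29 were detected, with means of -0.21 and -0.33. STAT3, which transmits signals of cytokine receptors, had 4 detected probes. Both probes at the 3′ end, which overlap, had means of -0.11 and -0.16, and those 11701 and 20931 bases upstream 0.24 and 0.50. SOCS3, a target of STAT3 signaling, had ratios of -0.29 and -2.20 and was not well above background in co-culture on array 2. KRT17 showed the same gap, with 52.7 and 57.3 on array 1 and 6.82 and 24.1 on array 2, the 6.82 not well above background. Vimentin (VIM), the intermediate filament of mesenchymal cells, read 205391 and 200718, then 72478 and 79188, a mean of -0.05, which was 0.27 under normexp with loess. VEGFC had means of -0.16 and 0.25 at its 2 probes, SEMA6C had -0.15 and 0.28 at detected probes, IL18 had 0.10 at the detected one, and MMP20 passed the background limit in 0 channels.

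The remaining lists are read against the same shares of all 8464 genes, 4.22% at least 1.5-fold higher and 1.97% lower. Of 61 detected genes of the cell cycle and replication, 6 were at least 1.5-fold higher (9.84%) and 0 lower (median 0.13), among them CDC25B at 0.97, CDC20 at 0.86 and PLK1 at 0.74, which act in mitotic entry and exit. In the TGF-beta and BMP list 4 of 31 were higher (12.9%) and 0 lower (median 0.14), with TGFB1 at 0.75 and 0.68 at its 2 probes and BMP1, the protease that trims procollagen, at 0.90. For NF-kB and immediate early genes the counts were 3 higher (9.68%) and 1 lower (3.23%) of 31 (median 0.17), and the lower one was NFKB1 at -0.85, with 0.01 at its upstream probe. For redox and metal response they were 1 (4%) and 3 (12%) of 25 (median -0.14), with MT1E at 0.85 (0.39 and 0.11 at its other probes, which related metallothioneins may also bind), NQO1 at -0.84, SLC39A10 at -0.85 and catalase (CAT) at -0.63. The upstream NQO1 probe had 0.13. In the Wnt list 2 of 27 were higher (7.41%) and 0 lower, with a median of 0.14 that was -0.00 under normexp with loess. Under normexp with loess the counts of higher genes were 0 for interferon-stimulated genes, 3 for the cell cycle, 1 for TGF-beta and BMP and 0 for NF-kB and for Wnt. The counts under it for the actin, the collagen and matrix, and the glycolysis and hypoxia lists are not given here. Over all fixed lists the members past 1.5-fold in either direction fell from 62 to 40 under it. The 50 cytosolic ribosomal protein genes had a median of -0.25, with 7 above 0 and 0 past 1.5-fold, and this median was 0.03 under normexp with loess. For oxidative phosphorylation (55 genes), proteasome subunits (35), heat shock and unfolded protein response (39), semaphorins and plexins (15), antigen presentation (15) and apoptosis (34), 0 genes were past 1.5-fold and the medians lay between -0.06 and 0.03. The 8 detected epithelial markers had a median of -0.02 with 4 above 0. The 26 detected mesenchymal markers had a median of 0.06 with 13 above 0, 9 higher and 8 lower on both arrays. Over all 8464 genes 50.8% were above 0, and 30.4% were higher and 28.1% lower on both arrays. Past 1.5-fold, 1 epithelial marker was lower (12.5%), EPCAM at -0.85, with 0.31 at its upstream detected probe. In the mesenchymal list 4 were higher (15.4%), SNAI1 at 0.66 beside COL5A1, COL6A3 and MMP2.

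**Figure D4:**
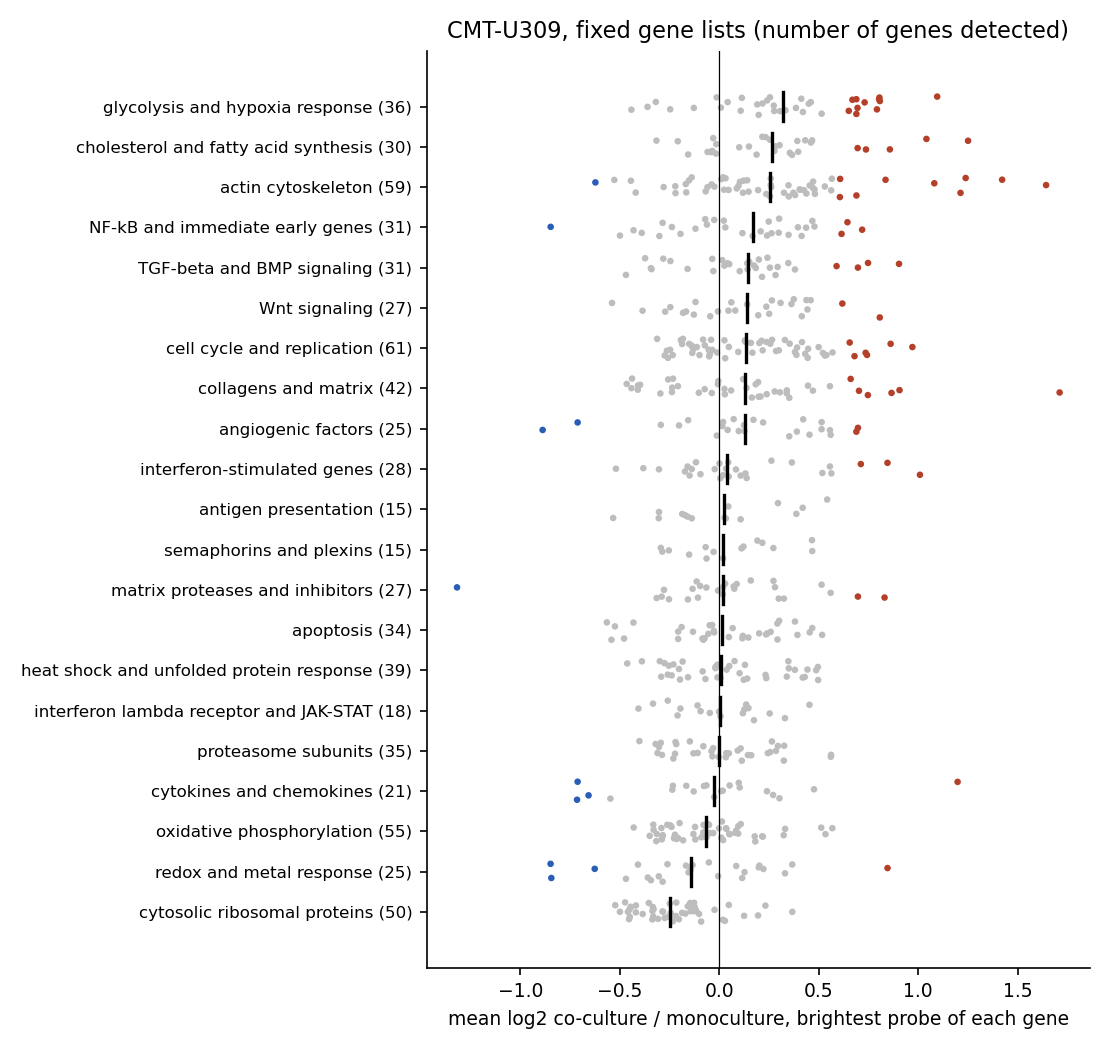
Each point is a detected gene of 1 of 21 fixed lists (rows, with the number of genes detected), placed at the mean log2 ratio of co-culture over monoculture of its brightest probe (x axis), red or blue where at least 1.5-fold higher or lower with equal signs, and the bar is the list median. Glycolysis and hypoxia response has the highest median, 0.32, and cytosolic ribosomal proteins the lowest, -0.25, which was 0.03 under normexp with loess.

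The probes called in CMT-U309 were then read on the arrays of the other lines. Of the 160 probes called higher, 131 were detected in CMT-U27, where 130 had a mean ratio above 0 (48.0% over all probes detected in both lines), 96 were called higher (1.25% over the same probes) and the median was 1.30. In P114, 133 were detected, 32 had a mean above 0 (49.7% over all probes detected in both lines), 0 were called higher (0.0468%) and the median was -0.22. The 2 P114 arrays gave equal signs for 43.8% of the probes detected in P114, against 64.6% in CMT-U27 and 57.3% in CMT-U309. A P114 mean can therefore average ratios of opposite sign, as for ZYX, with -1.25 and 1.58 at its brightest probe. Of the 16 probes called lower, 10 were detected in CMT-U27 with 9 below 0 (52.0%) and 0 called lower (0.141%), and 10 in P114 with 4 below 0 (50.3%) and 0 called lower (0.430%). Over all probes detected in each pair of lines, the Spearman correlation of the mean ratios was 0.69 with CMT-U27 (21292 probes) and -0.21 with P114 (21382 probes), given as a description. Each line lay on a slide of its own, so slide and line cannot be told apart. Among genes called in CMT-U309, FSCN1 had 1.24 in CMT-U309, 0.32 in CMT-U27 and -1.11 in P114, and the brightest upstream COL1A1 probe had 1.42, -0.12 and -1.48. DDIT4 had 1.095, 0.43 and 0.49. MMP1 was detected in P114, where it had -0.00, and not in CMT-U27. TCP11L2 had -1.20, -0.11 and -0.01, and EPDR1 -1.12, -0.06 and 0.06.

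**Figure D5:**
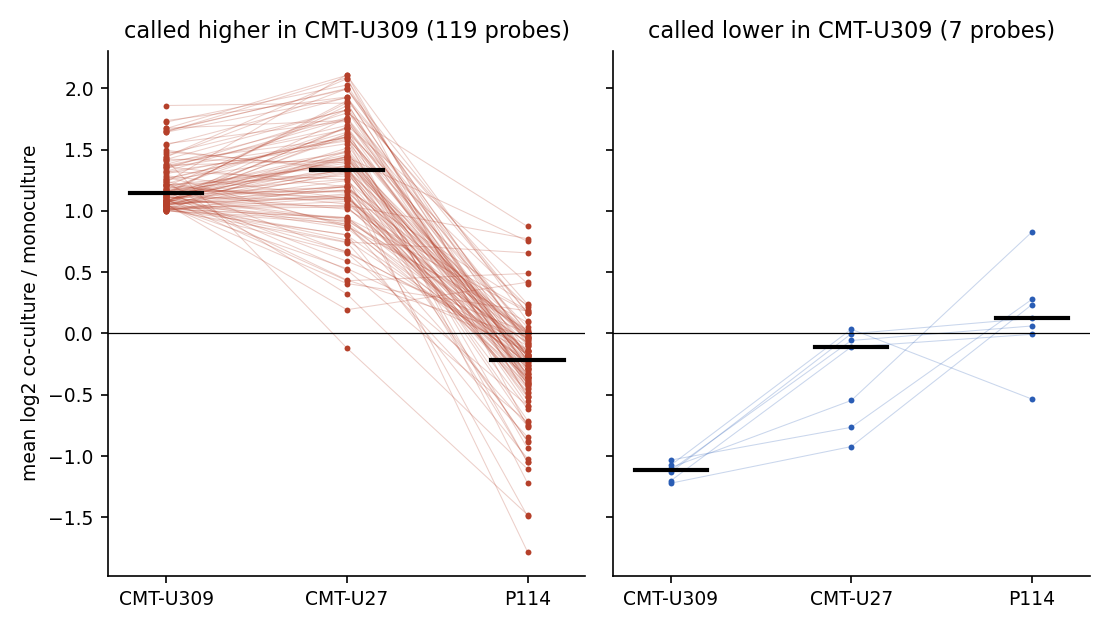
For probes called higher (left, 119 probes) or lower (right, 7 probes) in CMT-U309 and detected in all lines, each line joins the mean log2 ratio of co-culture over monoculture (y axis) of 1 probe in CMT-U309, CMT-U27 and P114, and the bars are medians. The medians of the left panel are 1.14, 1.33 and -0.22, and those of the right panel -1.12, -0.11 and 0.12. The CMT-U309 values were used to choose the probes.

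Genes measured in one condition only add bounds. In 495 probes the signal was well above background on both arrays in monoculture and on neither in co-culture, and in 1 probe the reverse held. The co-culture channel of array 2 was the dimmest, as given above, and its part in this split was not tested. The latter, TC76189, had no gene symbol and was at least 4.87-fold higher in co-culture. The bound on the fold was above 1 for 51 of the 495. Among those with a gene symbol the highest were DCDC1, at least 1.41-fold higher in monoculture, the zinc transporter SLC39A8 at least 1.40-fold, IFNA6 at least 1.28-fold, NRCAM at least 1.26-fold and MTUS1 at least 1.18-fold. GNPTAB followed with at least 1.11-fold, although its ratios were -0.88 and 0.11, so that the order of the conditions differed between the arrays.

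The genes listed by the study over all 3 lines were read in CMT-U309 as well. The study chose that list on these samples with those of the other lines, so its direction here is not independent evidence. Of 105 genes listed as higher and found on the array by symbol, 31 were detected at their brightest probe. Of these 20 had a mean above 0 (50.8% of all detected genes), with a median of 0.12, 14 were higher on both arrays (30.4% of all detected genes), and 6 were called higher (0.756% of all detected genes). Of 30 genes listed as lower and found on the array, 6 were detected, 2 of them had a mean below 0 (49.2%), and 0 were called.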

How the data were processed

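Total RNA of co-cultured and monocultured CMT-U309 cells was labelled from oligo-dT primers (Quick Amp), which favours the 3′ part of transcripts, and hybridized to canine 4x44K Agilent arrays annotated on canFam2. The authors deposited 1 scanner file an array, from Feature Extraction (10.7.3.1 per the labels, 10.10.1.1 per the file headers). Their processed signals are intensity values after local background subtraction and dye normalization within the array. A second deposited table holds log10 ratios per spot, turned to co-culture over monoculture as the values show, and gave the same calls. No column of the authors' own comparisons was used, and 0 sample columns were left unused.

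Control spots and outlier-flagged spots were left out (116 flagged on array 1 and 35 on array 2), spots of 1 probe were averaged, and log2 ratios were formed from the deposited processed intensity of each array and averaged over both. Each gene of a list was represented by its brightest probe. Lists were counted past 1.5-fold. Single-channel levels came from limma 3.58.1 (R 4.3.3), other values from Python 3.11.15 with pandas 2.3.3 and numpy 2.4.6. For a probe measured in 1 condition the fold is a bound, the bright mean over the dim mean, taken on each array as the higher of the lowest signal well above background and the dim probe's own. The call rule was tried on simulated ratios. The planted changes were larger than any mean ratio measured here, so ratios near the threshold were not covered. The number of arrays limits the precision.

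The members, lists and alternatives were chosen with earlier results of these data known. Genes were named by rule: up to 12 called in each direction with the largest smaller ratio of the 2 arrays (further members of each list, up to 4 called in each direction), the genes the study followed, and up to 6 with the largest bounds. List members past 1.5-fold, further genes and probes were named after their values were seen. Some genes that the counts include are not reported here by name. Of 13022 gene symbols in the files, 11642 were found in the RefSeq gene table. Coordinates and probe sequences are those of the scanner files. Alternatives were another scaling, background correction, filter, threshold and probe choice.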

Additional observations from a re-analysis of the deposited data

Results flagged for a closer look

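In 5 genes named above with probes called higher in CMT-U309, the ratio stood below 0 on both P114 arrays. Their ratios above 0 on both CMT-U309 arrays follow from the call by which they were chosen. The share of all probes with this pattern was not counted. The differences between lines were not tested, since each line has 1 pair of RNA samples, and line and slide cannot be told apart. For TAGLN2 CMT-U309 minus P114 was 2.99 on the log2 scale, with P114 ratios of -2.44 and -1.12. For COL1A1, at its brightest called probe, it was 2.90, with P114 ratios of -1.48 and -1.47. For CNN1 it was 2.57, with P114 ratios of -1.91 and -1.07. For CLPTM1, at its brightest called probe, it was 2.36, with P114 ratios of -1.48 and -0.63. For FSCN1 it was 2.34, with P114 ratios of -1.59 and -0.62. At the same probes the CMT-U27 means were 1.29 for TAGLN2, -0.12 for COL1A1, 1.17 for CNN1, 1.58 for CLPTM1 and 0.32 for FSCN1. TAGLN2 and CNN1 were named after their values were seen.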

How the results depend on the processing

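The counts of 160 probes higher and 16 lower changed most with the processing. Normexp (offset 50) with loess, which changes background correction and dye normalization together, gave 13 and 2, and the cause was not tested. With no detection filter they were 1437 and 797, with 2-fold on each array 58 and 5, and with a 1.5-fold threshold 952 and 452. On 1 array alone, where a dye effect no longer cancels, they ran from 333 to 556 and from 73 to 306. With no detection filter 23164 probes had equal signs. The 22 study-listed genes in the listed direction became 109 with no detection filter and 21 to 44 on 1 array alone. The 62 list members past 1.5-fold became 40 under normexp, 99 with no detection filter and 85 to 143 on 1 array alone. The median of the epithelial markers, CMT-U309 minus the mean of the other lines, was -2.08, and -1.46 with no quantile step. Scaling each channel to a common median, which shifted the list medians by 0.04, gave 194 and 13 probes, and centring by GC content, chosen after seeing the data, gave 120 and 14. Taking the 3′-most detected probe of a gene, also chosen after seeing the data, counted 65 list members. Of 256 values of named genes under other settings, 204 moved by no more than the SD of the 2 array ratios. The other 52 moved by more, 28 of these under normexp. Many values could not move farther. The ratio of 1 array alone always lies within that SD of the mean, and dropping the detection filter leaves a probe's ratio as it is. By setting, 22 of 32 values stayed within that SD after scaling to a common median, 4 under normexp and 18 after centring by GC content. Under normexp IL18 and SEMA6C, both uncalled, went from 0.10 to -0.03 and from -0.15 to 0.01. No paired analysis was possible because the replicate number marks the dye orientation of 1 pair of RNA samples. Dim probes, such as those of IL28RA, MMP20 and SOCS3, were limited by signal over background.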

Other observations

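Among called probes with no gene symbol, several are described in the files by the gene they match, and they were chosen here after their values were seen. A probe described as profilin 1, which delivers actin monomers to growing filaments, had ratios of 1.64 and 1.71 in CMT-U309 (LOC607397). A probe described as a fragment of pyruvate kinase M, the last enzyme of glycolysis, had 1.497 and 1.848 (ENSCAFT00000027992). A probe described as PDZ and LIM domain 7, a protein of actin filaments, had 1.308 and 1.499 (LOC491973). None of these probes was counted in the lists. Among called-lower probes, TC58434, described as a subunit of soluble guanylate cyclase, the receptor of nitric oxide, had -1.04 and -1.21.

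Other genes with called probes, also chosen after their values were seen, are given as values. PYGB, a glycogen phosphorylase, had means of 1.44 and 0.70 at its 2 probes. DIO3, which inactivates thyroid hormone, had 1.15 and 1.28 at its 2 probes and was not detected in CMT-U27 or P114. STC1, a secreted glycoprotein, had 1.06 at the called probe and 0.80 at the brightest. IGFBP4, which binds insulin-like growth factors, had 1.18 and 0.22. UCP2, a mitochondrial carrier, had 1.23, with ratios of 0.89 and 1.58.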
